A study of Homo sapiens with 47 samples.

Results

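HAP1 clone C3, a single-cell clone with mutations in NUP58, was compared with the wild-type (WT) HAP1 line from which it was made. HAP1 is a near-haploid human line derived from a chronic myeloid leukemia. The comparison takes the 4 RNA-seq libraries titled C3 and the 4 titled WT, 8 of the 47 libraries of the series. C3 was obtained by transfection of a plasmid encoding Cas9, eGFP and a pair of guide RNAs against NUP58, sorting of GFP-positive single cells and growth of a colony. Another 4 libraries came from the empty vector (EV) line, which received the same plasmid without guide RNA, and 20 came from the 5 other NUP58 clones, C1, C2, C4, C5 and C6. WT cells carried no plasmid and no edit. C3 is 1 clone, so what the NUP58 mutations did and what this clone had or gained for other reasons cannot be told apart.

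NUP58 encodes a nucleoporin, a protein of the nuclear pore complex through which proteins and RNA pass between nucleus and cytoplasm. Together with NUP54 and NUP62 it forms a complex in the central channel of the pore, where stretches rich in phenylalanine-glycine (FG) pairs bind passing transport receptors. These receptors, the karyopherins, carry cargo through the pore, and the small GTPase Ran gives the transport its direction. The comparison of C3 with WT asks which other transcripts differ in a viable clone with an impaired pore gene.

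The reference sequences of the edited exons are shown because they carry the mutations that define the clone. Per the study, C3 carries an in-frame deletion in exon 4 and a frameshifting deletion in exon 13. The gene lies on the plus strand of chromosome 13, and its canonical transcript in GENCODE 44 (GRCh38) has 16 exons. The sequences were read from hg38 on the plus strand, 5′ to 3′, and hold only coding bases. No FG pair is encoded in either exon, so no base is in capitals.
NUP58 exon 4, chr13:25312883-25313032: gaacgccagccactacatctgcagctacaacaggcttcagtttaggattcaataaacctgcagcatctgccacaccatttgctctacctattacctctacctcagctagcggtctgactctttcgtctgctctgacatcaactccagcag
NUP58 exon 13, chr13:25331357-25331558: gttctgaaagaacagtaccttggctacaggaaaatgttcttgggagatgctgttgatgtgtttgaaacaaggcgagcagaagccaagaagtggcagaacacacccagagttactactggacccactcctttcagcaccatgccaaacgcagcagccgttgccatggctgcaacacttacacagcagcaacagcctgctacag
Exon 4 has 150 bases, a multiple of 3. Exon 13 has 202 bases. The reading frame of the whole transcript encodes 14 FG pairs, of which 5 lie in exons 1 and 2 and 9 in exons 14 to 16, downstream of the frameshift. The values below are sums over a gene and do not show where a transcript ends.

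Expression was measured as FPKM, fragments per kilobase of transcript, scaled to the mapped fragments of the library. Total depth is unknown in this unit. Depth relative to WT replicate 1, estimated from the low values, was between 0.816 and 1.01 in C3 and between 0.806 and 1.00 in WT. Libraries correlated with each other at Pearson r of 0.933 to 0.983 on log2(FPKM + 1), across 13179 genes. Replicate 2 of C3 and replicate 2 of WT correlated with each other at r = 0.977 and less well with the other libraries of their own lines, at 0.938 to 0.972. The closing section gives the counts without both of them. BCR and ABL1, the fusion partners of this leukemia, were expressed in all 3 lines, with a summed level of 16 to 25.6 FPKM in C3, 18.9 to 23.2 in WT and 16 to 25.1 in EV. Of 8 haematopoietic markers, 5 were listed at 0 in every C3 library, among them PTPRC and SPI1, and only the transcription factor gene TAL1 reached a mean of 1 FPKM. TAL1 stood at 12.1 to 19.3 FPKM in C3, 14.1 to 21.1 in WT and 1.12 to 1.63 in EV. Of 12 epithelial markers, which would mark cells of HCT116, the colorectal carcinoma line of the study, 3 reached a mean of 1 FPKM in C3, and their summed level was 10.4 to 16 FPKM in C3 against 11 to 19.8 in WT. The 3 were CDX2, at 3.05 to 5.33 FPKM in C3 and 1.84 to 4.21 in WT, ESRP1, at 2.49 to 3.92 and 3.12 to 6.60, and CLDN3, at 1.87 to 4.70 and 3.19 to 8.29. CDH1 and EPCAM were below a mean of 1 FPKM in both lines, though EPCAM reached 1.25 FPKM in 1 WT library.

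The edited gene was checked first. NUP58 stood at 15, 10.7, 13.7 and 11.6 FPKM in the C3 libraries and at 34.3, 34.7, 50.4 and 45.8 FPKM in the WT libraries. The lines did not overlap, and the C3 mean was 30.9% of the WT mean and 31.7% of the EV mean. NUP58 fell by 1.61 on the log2(FPKM + 1) scale (SE 0.16, n = 4 and 4; limma adjusted p = 0.0042). An exact two-sided permutation test of the 8 values gave p = 0.0286, the smallest that 4 against 4 libraries allow. Among the 8 HAP1 lines C3 ranked sixth from the top, with a mean of 12.8 FPKM ± 1.9 (SD, n = 4), below C4 (25.5 ± 2.2), C5 (15.6 ± 5.5) and C6 (15.4 ± 2.4) and above C1 (10.1 ± 0.90) and C2 (9.80 ± 1.6). The libraries of C3, C5 and C6 overlapped, and every C4, WT and EV library lay above every C3, C5 and C6 library. C3 did not differ from the mean of the 5 other clones beyond the spread (log2 difference -0.15, SE 0.14, adjusted p = 0.73).

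Few other genes separated C3 from WT. Of 13179 genes with a mean of at least 1 FPKM over the 8 libraries, 52 (0.395%) passed the study's own thresholds (p below 0.01 without adjustment, change of more than 2-fold) and are termed called here. Of these, 31 (0.235%) were higher and 21 (0.159%) lower in C3. This balance rested on replicate 2 of C3: without it 24 genes were called higher and 40 lower, and without replicate 2 of both lines 22 and 27. At a Benjamini-Hochberg adjusted p under 0.05, 12 genes (0.0911%) passed, all of them called. The words rose and fell are kept for these genes. SYT1, MFAP2, CYP1B1, ZNF256 and ZNF22 rose. GTSF1, SPARC, RP11-11N9.4, SLC43A3, TCEAL9, NUP58 and MYRIP fell. The 4 C3 libraries did not overlap the 4 WT libraries for 46 of the 52 called genes, where 3.6% of all genes tested showed no overlap. Genes were called from these same libraries, so the lack of overlap adds no support. The other clones against the same WT libraries gave 90 called genes in C4 (0.686%), 117 in C1 (0.889%), 159 in C2 (1.21%), 304 in C5 (2.31%) and 488 in C6 (3.65%). The EV line gave 23 (0.175%), of which 13 were higher (0.0988%) and 10 lower (0.076%). These comparisons share the WT libraries, and the differences between their counts were not tested.

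**Figure D1:**
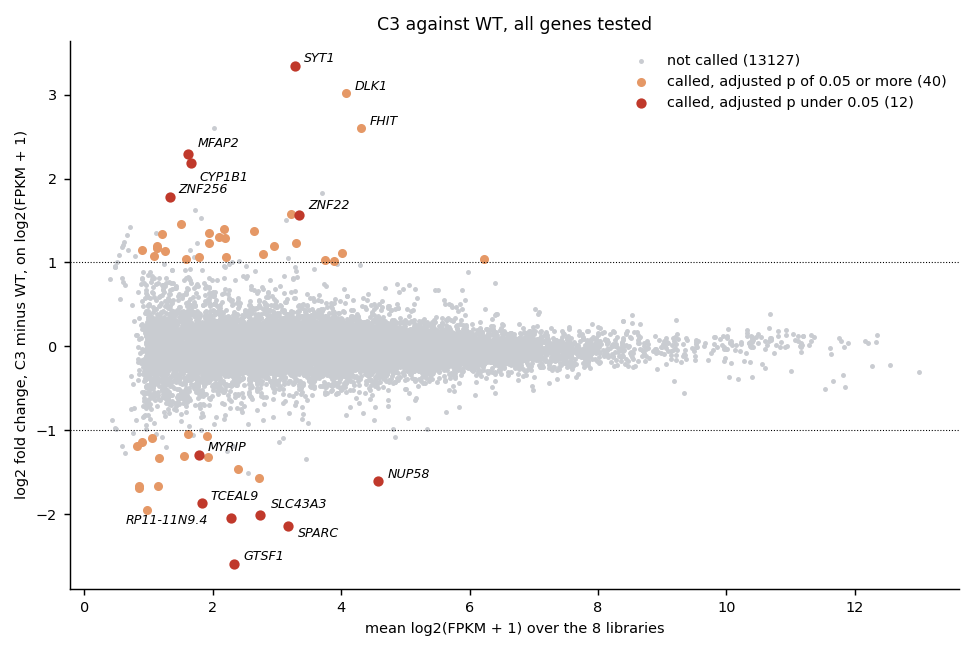
Log2 fold change of C3 minus WT (vertical axis, on log2(FPKM + 1)) against the mean log2(FPKM + 1) of the 8 libraries (horizontal axis) for the 13179 genes tested, 1 point per gene. The 12 genes with an adjusted p under 0.05 are red and named, the 40 other called genes orange, and dotted lines mark a fold change of 2. DLK1 and FHIT lie as far out as the named genes but did not pass.

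The largest rise was that of SYT1, the calcium sensor of synaptic vesicle fusion (chr12:78863993-79452008). SYT1 stood at 25.0, 55.0, 22.5 and 25.8 FPKM in C3 and at 2.23, 2.98, 1.24 and 1.98 in WT. It rose by 3.35 on the log2 scale (SE 0.28, adjusted p = 0.00279), and every C3 library was above every WT library. MFAP2, a component of elastic microfibrils in the extracellular matrix (chr1:16974502-16980632), stood at 6.69, 9.51, 4.54 and 3.76 FPKM in C3 against 0.316, 0.746, 0.318 and 0.239 in WT (log2 fold change 2.29, SE 0.26, adjusted p = 0.0115). CYP1B1, a cytochrome P450 that oxidizes estrogens and polycyclic hydrocarbons (chr2:38066973-38109902), stood at 5.05, 5.28, 4.87 and 8.33 FPKM in C3 against 0.278, 0.307, 0.886 and 0.518 in WT (log2 fold change 2.19, SE 0.22, adjusted p = 0.0042). All 3 genes stood below 3 FPKM in each WT library and above 3 FPKM in each C3 library. Without C3 replicate 1 the adjusted p of MFAP2 was 0.0674, and it was also above 0.05 without WT replicate 1 or 3.

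Both remaining genes that rose encode zinc finger proteins. ZNF256, which carries a KRAB repressor domain (chr19:57940833-57947706), stood at 4.99, 3.10, 4.19 and 2.72 FPKM in C3 and 0.531, 0.240, 0.402 and 0.271 in WT (log2 fold change 1.78, SE 0.21, adjusted p = 0.012). ZNF22 (chr10:45000923-45005326) stood at 18.5, 17.6, 15.2 and 15 FPKM in C3 and 5.55, 3.16, 4.78 and 6.73 in WT (log2 fold change 1.57, SE 0.19, adjusted p = 0.0146). The ranges of the 2 lines were apart for both genes. Within 500 kb of ZNF256, 34 other genes were tested, with a median log2 fold change of 0.215 and none called. An unadjusted p under 0.05 was reached by ZNF329, ZNF606, ZNF417, ZNF584, ZNF776, ZNF419 and ZNF587, of which 6 were higher as well. The adjusted p of ZNF256 reached 0.0716 without C3 replicate 3 and was above 0.05 also without C3 replicate 1 or WT replicate 3 or 4. That of ZNF22 reached 0.0885 without C3 replicate 1 and was above 0.05 also without C3 replicate 3 or 4 or WT replicate 1 or 3. Genes of this family share sequence, and how reads that map to several genes were divided affects their FPKM.

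GTSF1, a small protein that acts with Piwi proteins in transposon silencing (chr12:54455950-54473602), showed the largest fall. It stood at 1.65, 0.582, 0.922 and 1.25 FPKM in C3 and at 17.0, 10.5, 8.32 and 11.3 in WT (log2 fold change -2.59, SE 0.24, adjusted p = 0.00279). SPARC, a collagen-binding matricellular glycoprotein (chr5:151661096-151686975), stood at 4.75, 2.95, 2.76 and 2.88 FPKM in C3 and 18.4, 24.3, 15.1 and 15.1 in WT (log2 fold change -2.15, SE 0.20, adjusted p = 0.00279). Neither gene was lost altogether in C3, but each C3 library was below each WT library.

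The uncharacterized long non-coding RNA RP11-11N9.4 stood at 2.26, 1.54, 0.629 and 1.40 FPKM in C3 and 11.7, 11.1, 8.15 and 5.78 in WT (log2 fold change -2.05, SE 0.26, adjusted p = 0.021). SLC43A3, a transporter of purine nucleobases (chr11:57406954-57427580), stood at 2.76, 1.04, 3.57 and 2.45 FPKM in C3 and 12.7, 8.11, 15.9 and 14 in WT (log2 fold change -2.01, SE 0.27, adjusted p = 0.0283). TCEAL9, a member of the X-linked family related to transcription elongation factor A (chrX:103356489-103358462), stood at 1.09, 0.688, 0.620 and 1.08 FPKM in C3 and 6.32, 5.25, 5.61 and 6.01 in WT (log2 fold change -1.87, SE 0.17, adjusted p = 0.00279). These 3 genes were expressed at moderate levels in WT, and none of the C3 values reached the lowest WT value. MYRIP links Rab27-coated granules to the actin cytoskeleton (chr3:39808914-40260321). It stood at 1.29, 1.17, 1.2 and 1.13 FPKM in C3 and 4.61, 5.34, 4.54 and 3.24 in WT (log2 fold change -1.29, SE 0.18, adjusted p = 0.0283). Of these genes, TCEAL9 passed without any 1 library. The adjusted p of RP11-11N9.4 reached 0.111 without C3 replicate 4 and was above 0.05 also without C3 replicate 3 or WT replicate 1, 2 or 3. SLC43A3 reached 0.151 without WT replicate 4 and was above 0.05 also without C3 replicate 1, 3 or 4 or WT replicate 1 or 3. MYRIP reached 0.155 without WT replicate 1 and passed only when WT replicate 4 was the library left out.

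**Figure D2:**
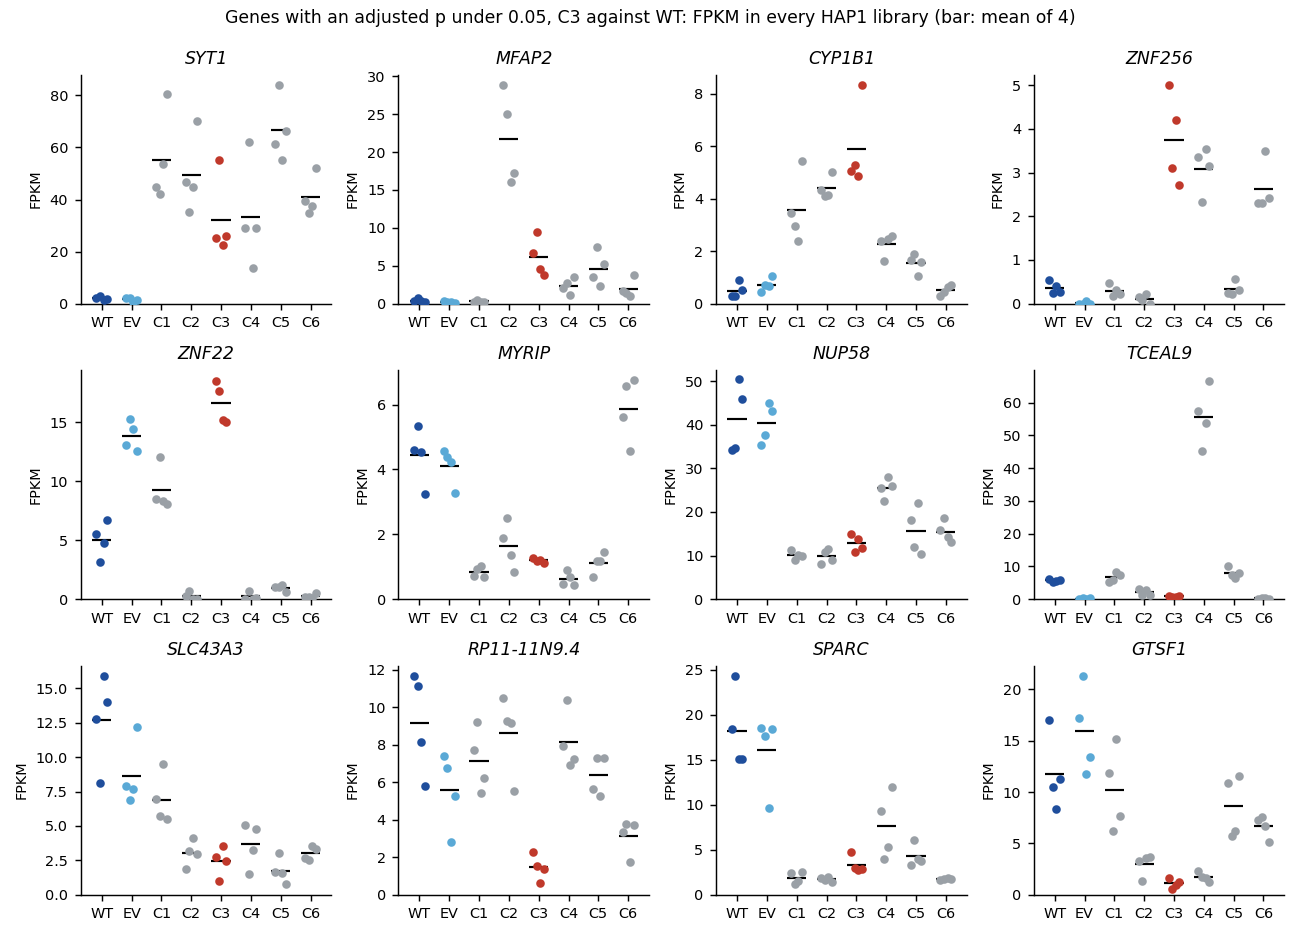
FPKM of the 12 genes with an adjusted p under 0.05 in each library of the 8 HAP1 lines, 1 panel per gene with its own linear axis from 0. Points are libraries (WT dark blue, EV light blue, C3 red, other clones grey) and bars are means of 4. In every panel the red points lie apart from the dark blue ones, and for ZNF22 and TCEAL9 the EV points lie on the side of C3.

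The EV line gave a second control that shares no library with WT. C3 against EV had 60 called genes (0.457% of 13142) and 27 with an adjusted p under 0.05 (0.205%). SYT1 (log2 fold change 3.61), GTSF1 (-3.0), MFAP2 (2.47), ZNF256 (2.20), CYP1B1 (1.99), SPARC (-1.95), NUP58 (-1.59) and MYRIP (-1.21) passed against EV as well, with adjusted p between 0.000273 and 0.0121. For RP11-11N9.4 (log2 fold change -1.40, adjusted p = 0.14) and SLC43A3 (-1.51, adjusted p = 0.061) the difference from EV did not pass. ZNF22 stood at 12.5 to 15.3 FPKM in EV, next to the 15 to 18.5 of C3 (log2 fold change 0.25, adjusted p = 0.63). TCEAL9 stood at 0.123 to 0.279 FPKM in EV, lower than in any C3 library, and had too low a mean over C3 and EV to be tested. EV itself, an unedited line, had 5 genes with an adjusted p under 0.05 against WT (0.038% of 13153), which were STXBP2, BMP7, PDGFRA, TAL1 and TCEAL9. For PDGFRA, a growth factor receptor, and TAL1, C3 stood with WT and not with EV: PDGFRA measured 7.63 to 11.4 FPKM in C3, 3.85 to 8.04 in WT and 0.505 to 0.717 in EV.

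The other called genes are described by their values, since none had an adjusted p under 0.05 in the unpaired fit. DLK1, an imprinted Notch-like ligand, stood at 23.3, 115, 27.8 and 64.7 FPKM in C3 and 3.62, 3.75, 12.2 and 3.25 in WT (log2 fold change 3.02, SE 0.52, adjusted p = 0.0935; with the replicate block 0.0341). The lines did not overlap, but the C3 libraries spread widely. FHIT, a dinucleotide hydrolase encoded across a common fragile site, was even more uneven, with 11.8, 37.6, 157 and 71.8 FPKM in C3 and 10.1, 7.67, 4.33 and 7.18 in WT (log2 fold change 2.60, SE 0.63, adjusted p = 0.45). FHIT also reached 61.4 FPKM in 1 EV library, where the lowest EV library stood at 2.37. FAM19A5, a secreted chemokine-like protein of the brain, stood at 12.7, 17.2, 12.2 and 19.2 FPKM in C3 and 2.73, 5.75, 6.04 and 3.74 in WT (log2 fold change 1.58, SE 0.24, adjusted p = 0.0558; with the replicate block 0.0101).

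Among the called lower transcripts were long non-coding RNAs that were nearly absent from C3. RP11-324I22.3 was listed at 0 in all 4 C3 libraries and at 1.37, 4.73, 0.821 and 3.39 FPKM in WT. LINC00152 stood at 0.165, 0.614, 0 and 0.252 FPKM in C3 and 3.51, 1.32, 5.69 and 2.41 in WT. DNAJC27-AS1 stood at 0.0126, 0.0154, 0 and 0.0284 FPKM in C3 and 0.244, 8.0, 1.37 and 2.96 in WT, so its WT level was itself uneven. Their adjusted p values were 0.21, 0.17 and 0.68, and RP11-324I22.3 passed with the block (0.0474). Whether the counting used strand is not given in the sources used here, so reads of an antisense RNA and of the gene opposite to it may be mixed.

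Several called genes encode secreted signals or their regulators, a grouping made after their values were seen. BMP7, a bone morphogenetic protein, stood at 5.56, 5.04, 3.52 and 5.71 FPKM in C3 and 1.88, 2.14, 1.28 and 0.922 in WT (log2 fold change 1.23, SE 0.22, adjusted p = 0.104; with the block 0.0282). BMP7 was higher still in EV, at 8.15 to 13.5 FPKM, so C3 lay between the 2 controls. WNT3, a Wnt ligand, stood at 8.88, 19.1, 12.2 and 18.7 FPKM in C3 and 4.52, 6.10, 3.53 and 8.72 in WT, with adjusted p = 0.416 and 0.0101 with the block. APELA, a peptide hormone (log2 fold change -1.31), and IGFBP6, an insulin-like growth factor binding protein (-1.04), were called lower. With the block APELA passed (adjusted p = 0.0249). ANXA1, a calcium-dependent phospholipid-binding protein, stood at 4.38, 2.41, 1.78 and 3.27 FPKM in C3 and 16.5, 9.47, 9.60 and 7.60 in WT (log2 fold change -1.57, SE 0.26, adjusted p = 0.0856; with the block 0.00623). ANXA1 in EV, at 3.13 to 6.00 FPKM, overlapped C3 and lay below every WT library. The log2 fold change of C3 against EV was -0.40 (adjusted p = 0.72) and that of EV against WT -1.17 (adjusted p = 0.52).

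Some of the genes called higher act in vesicle release or neuronal contacts, again picked after the values were seen. The list of regulated exocytosis genes did not move with them: 10 of its 15 tested members were below 0, its median was -0.0837, and only SYT1 was called, while MYRIP, a granule gene, fell. CADPS, which primes dense-core vesicles, stood at 1.46 to 3.21 FPKM in C3 and 0.171 to 0.784 in WT (log2 fold change 1.17), and RIMS2, an active-zone scaffold, at 2.55 to 8.74 against 0.898 to 1.91 (log2 fold change 1.06). STXBP2, a Munc18 protein that binds syntaxins, stood at 6.33 to 11.4 FPKM in C3, 2.58 to 5.60 in WT and 19.4 to 26.3 in EV, so that it was higher in C3 than in WT (log2 fold change 1.10) and lower than in EV (-1.27). NAV3, a neuron navigator protein, stood at 4.13 to 9.50 FPKM in C3 and 1.56 to 2.40 in WT (log2 fold change 1.29), and FEZ1, a kinesin adaptor, at 65.2 to 153 against 30.0 to 69.6 (log2 fold change 1.04). With the exception of FEZ1 these ranges did not overlap between C3 and WT. With the block the adjusted p was 0.0058 for FEZ1, 0.0101 for STXBP2, 0.0231 for NAV3 and 0.0341 for CADPS, while RIMS2 did not pass (0.0735).

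**Figure D3:**
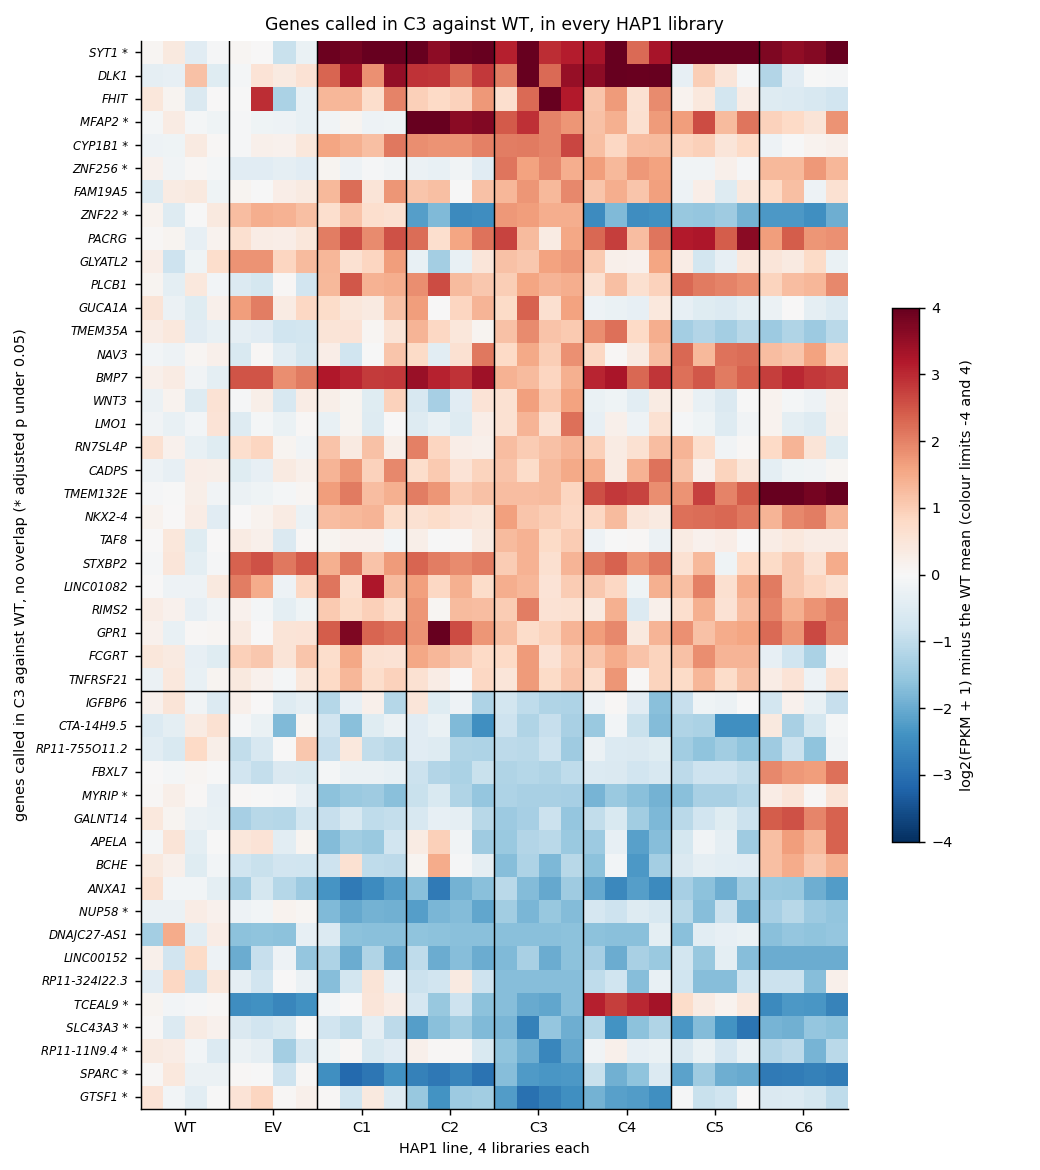
The 46 genes called in C3 against WT whose libraries did not overlap between the lines (rows, ordered by log2 fold change, with an asterisk at an adjusted p under 0.05) in the 32 HAP1 libraries (columns, 4 per line). Colour gives log2(FPKM + 1) minus the WT mean, with extreme values clipped. SYT1, SPARC and NUP58 have the same colour in all 6 clones, whereas ZNF22, TCEAL9 and TMEM35A have opposite colours among the clones.

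TAF8, a subunit of the general transcription factor TFIID, set C3 apart from every other HAP1 line. It stood at 25.5, 27.9, 17.7 and 21.4 FPKM in C3, at 10.2, 13.9, 6.89 and 10.0 in WT, at 6.43 to 12.6 in EV and at 8.30 to 13.6 in the 20 libraries of the other clones. No library of another HAP1 line reached the lowest C3 value. Against WT the log2 fold change was 1.12 (SE 0.21, adjusted p = 0.141; with the block 0.00202), and against the mean of the other clones 0.98 (SE 0.10, adjusted p = 1.45e-06). TAF8 lies at chr6:42050513-42087461. Of 16 tested genes within 500 kb of it, GUCA1A was the only called gene. GUCA1A, a guanylate cyclase activator of photoreceptors (chr6:42173364-42181338), stood at 1.47, 6.42, 1.27 and 3.42 FPKM in C3 and 1.08, 0.230, 0.0462 and 0.661 in WT (log2 fold change 1.34, adjusted p = 0.64), and EV reached 5.03 FPKM. MRPS10, which encodes a mitochondrial ribosomal protein (chr6:42206807-42217861), stood at 73.4, 52.7, 64.7 and 66.2 FPKM in C3 and 48.9, 40.7, 48.9 and 45.7 in WT (log2 fold change 0.47, SE 0.12, adjusted p = 0.53; with the block 0.034). The median log2 fold change of the 16 neighbours was 0.0291. TAF8 with its neighbours was singled out after the values were seen.

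Each C3 library deviated from its group mean most like the WT library of its number, but the pairing was uneven. The correlation was 0.742 for number 2 and 0.186 for number 1, while C3 replicate 3 and WT replicate 4 reached 0.315. With the replicate number as a block, 82 genes (0.622%) had an adjusted p under 0.05, 49 higher and 33 lower, and included all 12 genes above. Of the 82, 40 differed by less than 2-fold. The genes named next were picked from those that passed in this fit alone, after their values were seen. FOXA1, a forkhead transcription factor, stood at 53.4, 80.3, 46.0 and 50.7 FPKM in C3 and 36.8, 46.9, 25.5 and 33.4 in WT (log2 fold change 0.68, adjusted p = 0.71; with the block 0.01), so each C3 library was above the WT library of its number although the ranges overlapped. IRX3 and IRX5, homeobox genes of 1 cluster on chromosome 16, stood at 11.5 to 18.8 against 6.5 to 10.0 FPKM and at 8.93 to 14.5 against 5.04 to 8.27 FPKM, without overlap (log2 fold changes 0.93 and 0.80, block-adjusted p = 0.0101 and 0.0169). HOXD13 stood at 12.9, 13.6, 12.3 and 11 FPKM in C3 and 6.36, 5.16, 6.96 and 6.48 in WT (log2 fold change 0.89, adjusted p = 0.06; with the block 0.023). SOX4 (log2 fold change 0.74) and the histone deacetylase gene HDAC9 (0.67) were higher, with block-adjusted p of 0.014 and 0.01. TIMP1, an inhibitor of matrix metalloproteinases, was lower (log2 fold change -0.72, block-adjusted p = 0.014), as was GLUL, the glutamine synthetase gene (-0.64, block-adjusted p = 0.034).

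The transport machinery itself differed little. Of 31 other nucleoporin genes, all tested, none was called and none passed in either fit, against 0.395% called among all genes. Their log2 fold changes ran from -0.33 in NUP210, a membrane ring protein, to 0.25 in NUP88, of the cytoplasmic filaments, with a median of -0.0412 beside -0.0147 for all genes tested, and 3 had an unadjusted p under 0.05, as did 4.8% of all genes. Of the partners of NUP58 in the channel, NUP54 stood at 40.9, 29.4, 33.2 and 32.7 FPKM in C3 and 45.9, 38.5, 40.4 and 37.9 in WT (log2 fold change -0.26, SE 0.13, adjusted p = 1.00). Of 24 karyopherin genes none was called and 2 had an unadjusted p under 0.05, with a median of 0.075 and 16 above 0.

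Among the import receptors, 4 are named because the study examined them. It measured both RNA and protein across its clones and reports the proteins as upregulated in most of them. It also reports that induced KPNB1 and KPNA4 increased the viability of NUP58 mutant clones. The values here are RNA of 1 clone. TNPO2 stood at 87.1, 73.4, 98.5 and 92.0 FPKM in C3 and 56.4, 51.2, 78.2 and 73.3 in WT (log2 fold change 0.44, SE 0.16, adjusted p = 0.834; with the replicate block 0.047). Each C3 library was above the WT library of its number, though the ranges overlapped. TNPO1 stood at 88.6, 56.1, 63.6 and 67.4 FPKM in C3 and 47.9, 42.7, 66.0 and 55.7 in WT (log2 fold change 0.37, SE 0.17), and KPNA4 at 23.3, 16.4, 20.2 and 17.7 against 14.1, 12.3, 18.2 and 15.8 (log2 fold change 0.35, SE 0.16). Neither passed in either fit. Both genes had ranges apart from those of EV, without passing there. TNPO1 stood at 45.3 to 52.5 FPKM in EV (log2 fold change 0.46, adjusted p = 0.37) and KPNA4 at 12.8 to 15.5 (0.47, adjusted p = 0.31). TNPO2, at 57.0 to 85.3 FPKM in EV, overlapped C3 (log2 fold change 0.31). In the other clones KPNA4 had means of 21.0 to 25.2 FPKM, TNPO1 of 68.4 to 82.4 and TNPO2 of 80.5 to 109. All lay above the means of WT (15.1, 53.1 and 64.8) and of EV (13.7, 49.2 and 71.0), compared by means only. KPNB1, importin beta, stood at 149 to 306 FPKM in C3 and 151 to 324 in WT (log2 fold change 0.08, SE 0.27). Its means in the other clones, 227 to 274, lay on both sides of the WT mean of 239. The 7 genes of the Ran cycle had a median of 0.00181 and none was called.

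**Figure D4:**
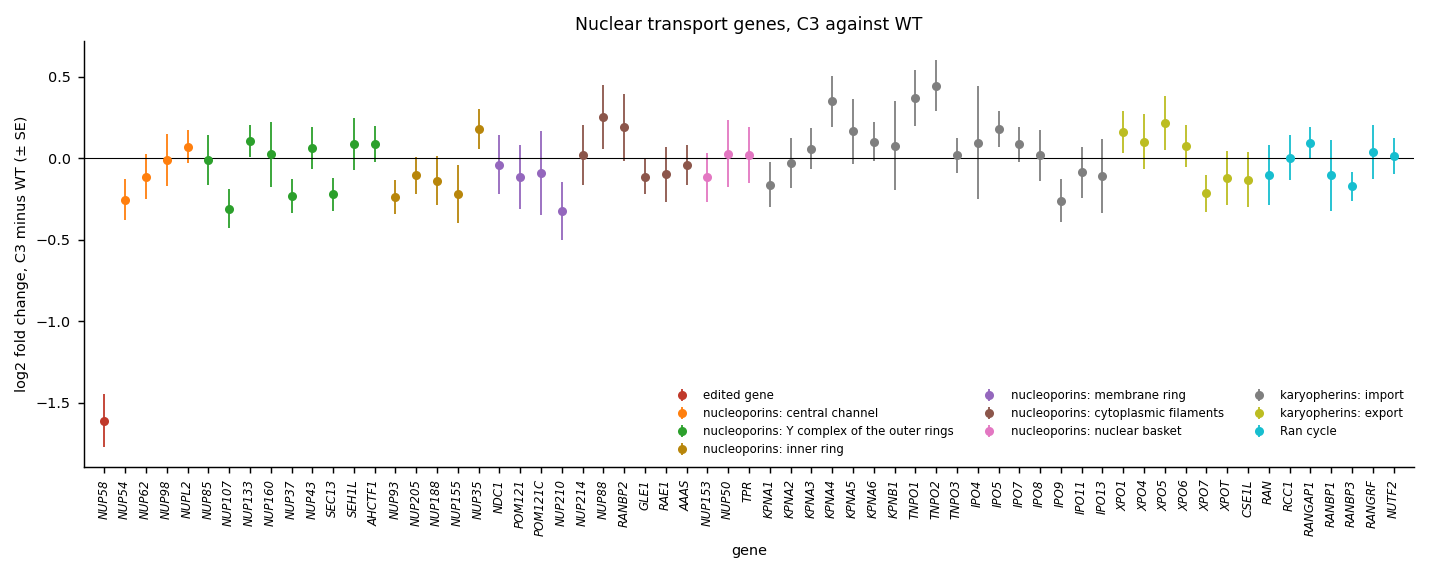
Log2 fold change of C3 minus WT with its standard error (bars, n = 4 and 4) for NUP58, 31 other nucleoporin genes, 24 karyopherin genes and 7 genes of the Ran cycle (horizontal axis), coloured by complex. NUP58 lies at -1.61, and every other gene lies between -0.33 and 0.45.

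Gene lists of pathways and cell identities held few called members. Of 44 lists, 6 held a called gene and 3 a gene with an adjusted p under 0.05, which were SPARC among 15 matricellular and basement membrane genes, SYT1 among 15 genes of regulated exocytosis, and ZNF256 and ZNF22 among 376 zinc finger genes. The medians of these lists were -0.0428, -0.0837 and 0.123, beside -0.0147 for all genes tested. Of the 376 zinc finger genes 288 lay above 0, where 46.7% of all genes did, and against EV their median was 0.103. Only ZNF256 and ZNF22 among them were called, where 0.395% of all genes were. The medians of the 44 lists lay between -0.345 and 0.176, and 27 of them within 0.1 of 0. Epithelial identity genes (5 tested) had a median of -0.325, and -0.446 against EV (SD of the medians between libraries 0.124). Annexins and S100 partners (12 tested) had -0.259, and -0.207 against EV (SD 0.261). HOX genes (23 tested) had 0.15, and 0.245 against EV (SD 0.268). These lists were picked after their values were seen, and ANXA1 was their only called gene.

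The amino acid response driven by the transcription factor ATF4 had a median of -0.199, with 28 of 31 members below 0, none called, and 1 passing with the block. Against EV the median was -0.0946, and the SD of the medians between libraries was 0.328. That gene was PSAT1, of serine synthesis, at 172, 145, 103 and 108 FPKM in C3 and 231, 231, 131 and 136 in WT (log2 fold change -0.44, adjusted p = 1.00; with the block 0.047). The level of this list moved with the replicate number in both lines: ASNS, the asparagine synthetase gene, stood at 82.5, 154, 43.7 and 39.8 FPKM in C3 and 170, 251, 45.1 and 55.3 in WT. Immediate early and ERK output genes had a median of -0.27, and -0.0909 against EV (SD between libraries 0.319), with EGR1 at 2.80 to 9.62 FPKM in C3 and 3.39 to 34.4 in WT (adjusted p = 1.00). CYR61, a matricellular YAP target, stood at 12.8, 4.11, 3.80 and 5.54 FPKM in C3 and 43.5, 14.4, 13.2 and 8.42 in WT (log2 fold change -1.34, adjusted p = 0.83; with the block 0.022). Each C3 library was below the WT library of its number.

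The 13 mitochondrially encoded genes had the lowest median, -0.345, with 12 below 0 and none called. The SD of the medians between libraries was 0.378, larger than the difference, and against EV the median was -0.115. MT-ND5, of respiratory complex I, stood at 328 to 919 FPKM in C3 and 577 to 1042 in WT. The 20 tested NRF2 targets had a median of -0.115, which was -0.0597 against EV and -0.0465 without WT replicate 3. NQO1, a quinone reductase, was at their lower end (log2 fold change -0.78, SE 0.25, adjusted p = 0.75), while GCLC, of glutathione synthesis, passed with the block as higher (0.44, block-adjusted p = 0.043). None of 19 p53 targets, 18 genes of the G1/S and 18 of the G2/M phase, 11 interferon-stimulated genes, 17 genes of the unfolded protein response of the endoplasmic reticulum or 78 ribosomal protein genes was called, and none passed in either fit. The medians of these lists were 0.0135, -0.12, -0.115, 0.0119, -0.0953 and 0.0627. Bulk samples cannot tell fewer cells of a kind from less RNA per cell.

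**Figure D5:**
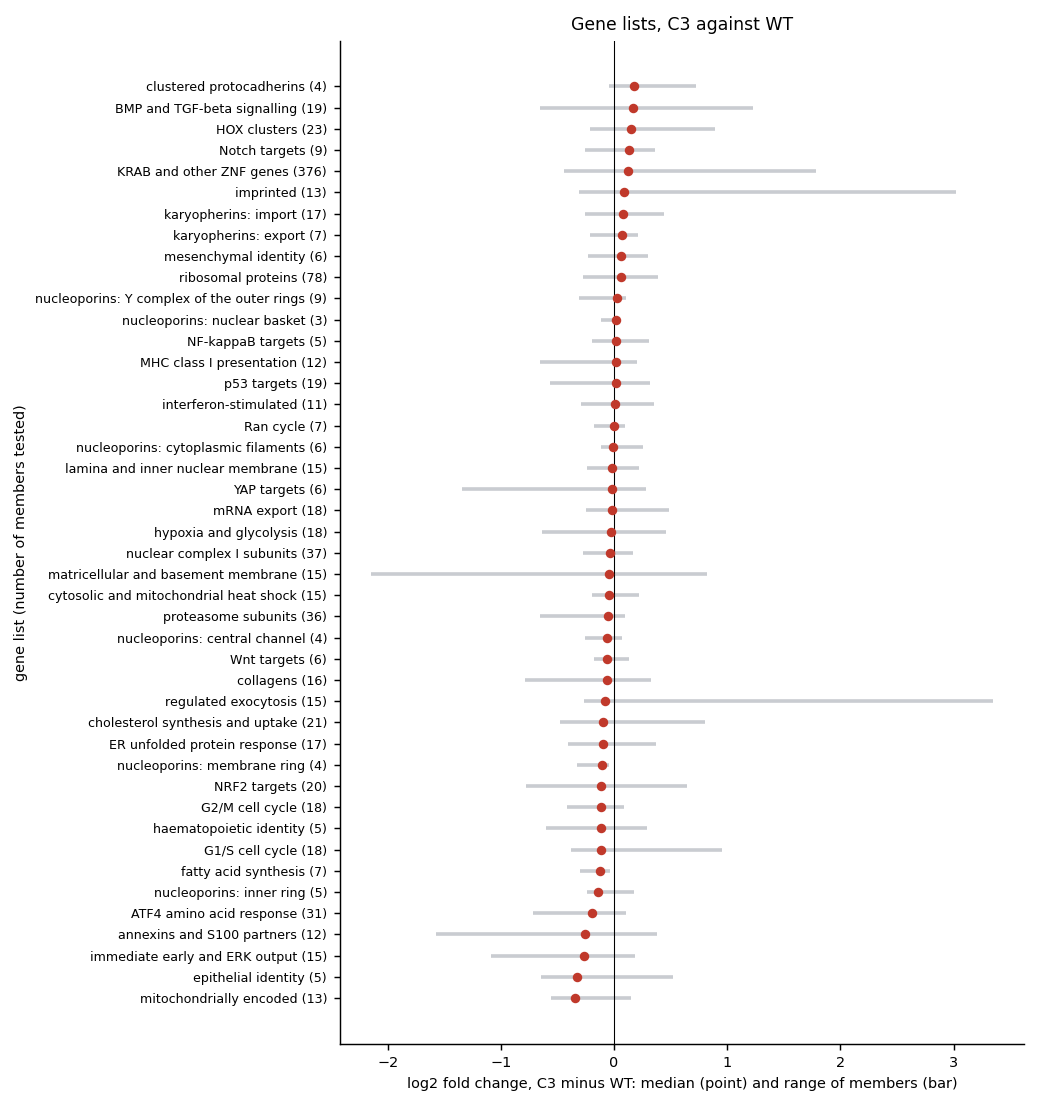
Median (point) and range of members (bar) of the log2 fold change of C3 minus WT for 44 gene lists, ordered by median, with the number of tested members in brackets. The medians lie between -0.345 and 0.176, and the long bars belong to single members such as SYT1, DLK1 and SPARC.

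C3 was then compared with the mean of the 5 other clones in a fit that used no WT library. Of 13186 genes, 283 (2.15%) had an adjusted p under 0.05, 152 higher and 131 lower in C3, and 56 of them differed more than 2-fold. With the replicate block 624 passed (4.73%), and without clone C6 the count was 92. The replicate number did not pair C3 with every clone. C3 replicate 2 correlated best with replicate 2 of C1, C4 and C5 (0.565, 0.744 and 0.719). In C2 and C6 it correlated best with replicate 1 (0.589) and replicate 4 (0.609). For 29 of the 283 genes the 4 C3 libraries lay outside the range of the 20 other libraries. ZNF22 led (log2 difference 3.09, SE 0.15, adjusted p = 1.34e-11), since C2, C4, C5 and C6 had means of 0.236 to 0.968 FPKM and only C1, at 9.23, came near C3 at 16.6. ZNF256 (1.26, adjusted p = 2.47e-06) and CYP1B1 (1.11, adjusted p = 5.76e-05) were higher in C3 than the mean of the other clones, and TCEAL9 (-1.87), RP11-11N9.4 (-1.61) and GTSF1 (-1.54) were lower, with adjusted p between 9.08e-08 and 7.98e-05. None of these 5 genes set C3 apart from every clone. ZNF256 reached 3.54 FPKM in C4 and 3.50 in C6, within the 2.72 to 4.99 of C3, and CYP1B1 reached 5.45 in C1 and 5.00 in C2, within the 4.87 to 8.33 of C3. GTSF1 went down to 1.27 FPKM in C4 and 1.34 in C2, and RP11-11N9.4 to 1.74 in C6, where the highest C3 libraries stood at 1.65 and 2.26. TCEAL9 was lower still in C6, with a mean of 0.237 FPKM, and had a mean of 55.7 in C4. SYT1, at 13.8 to 83.8 FPKM in the other clones, and SPARC, at 1.17 to 12, did not differ from C3 beyond the spread (log2 differences -0.59 and 0.14, adjusted p = 0.31 and 0.86).

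For a further group of genes, chosen from those that differed from the other clones after their values were seen, C3 lay closer to WT than the other clones did. BMP7 averaged 4.96 FPKM in C3, with a WT mean of 1.56, and 11.2 to 22.4 in the other clones (log2 difference -1.60, SE 0.14, adjusted p = 1.09e-07). PTGER3, a prostaglandin E2 receptor, stood at 6.38, 10.0, 5.71 and 5.73 FPKM in C3, with a WT mean of 11.8, and at 17.7 to 57.1 in the other clones (log2 difference -1.88, SE 0.14, adjusted p = 1.81e-08). CADM1, a cell adhesion molecule, stood at 0.238, 0.233, 0.331 and 0.163 FPKM in C3, with a WT mean of 0.625, and at 1.39 to 18.1 in the other clones (log2 difference -2.54, SE 0.20, adjusted p = 4.61e-08). All 3 were lower in each C3 library than in any library of the other clones. KRT8, a keratin of simple epithelia, stood at 7.15, 11, 8.49 and 13.6 FPKM in C3, with a WT mean of 10.0, and at 0.854 to 5.26 in the other clones (log2 difference 1.56, SE 0.16, adjusted p = 2.74e-06). SLITRK2, a synaptic adhesion protein, stood at 8.56, 8.65, 8.18 and 11.6 FPKM in C3, with a WT mean of 8.29, and at 1.11 to 5.95 in the other clones (log2 difference 1.37, SE 0.14, adjusted p = 2.42e-06). The long non-coding RNA ESRG stood at 3.94, 2.90, 5.12 and 5.95 FPKM in C3 and 3.59, 4.28, 14.6 and 8.60 in WT (log2 fold change -0.54, SE 0.37, adjusted p = 1.00). In the other clones ESRG did not exceed 0.914 FPKM in any library, and its mean was too low for a test. CCND1, cyclin D1, lay between, at 5.69, 6.44, 4.74 and 4.45 FPKM in C3, 1.97, 2.24, 3.90 and 1.35 in WT and 4.82 to 23.6 in the other clones (log2 difference from these -0.97, SE 0.10, adjusted p = 3.2e-06).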

How the data were processed

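RNA-seq of HAP1 lines was analysed. Per the labels and the study's methods, reads were checked with FastQC, adaptors trimmed, fragments aligned with STAR to GRCh38 and quantified with RSEM, and the authors deposited FPKM values without further normalization. Groups followed the sample titles. No column lacked a sample. The authors' own test statistics were not used. C3 was compared with WT by limma 3.58.1 in R 4.3.3 (linear model, empirical Bayes with a mean-variance trend, Benjamini-Hochberg adjustment) on log2(FPKM + 1), for genes with a mean of at least 1 FPKM; differences on this scale understate the change of low genes. The same test was used for C3 against EV, EV against WT and C3 against the other clones. It was tested on simulated data with independent noise in each library, so without deviations shared by replicate number. Of 100 genes moved by 1.5 on the log2 scale 95 were called, and of 100 moved by 2, 98. The moved genes were drawn only from those with a higher mean level, so these rates do not cover low genes. The p-values of moved and unmoved genes were adjusted together. Of 12979 genes not moved, 19 were called and 12 had an adjusted p under 0.05. The study describes its RNA-seq replicates as biological and independent experiments; the labels do not say what a replicate number stands for. Replicates of the same number deviated together (correlations 0.186, 0.742, 0.51 and 0.346 for numbers 1 to 4), so the number was used as a block in a second fit. Pairs of different numbers reached up to 0.315. Positions are from GENCODE 44. Genes named were NUP58, 4 karyopherins, all with an adjusted p under 0.05, the 8 non-overlapping called genes with the largest change in each direction, 5 genes known from earlier results and the called or extreme members of gene lists; others were chosen after their values were seen. Of the called genes, 1 is counted but not reported here by name. The members and lists were chosen with earlier results of these data known. Alternatives are given in the closing section.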

Additional observations from a re-analysis of the deposited data

Results flagged for a closer look

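In 5 of 50 groups examined, 25 named genes in C3 and in WT, 1 library lay far from the other 3; chance alone gives about 1 in 20. SYT1 measured 55.0 FPKM in C3 replicate 2, next to 25.8 in the nearest other C3 library. SPARC measured 4.75 FPKM in C3 replicate 1, next to 2.95. CYP1B1 measured 8.33 FPKM in C3 replicate 4, next to 5.28. MFAP2 measured 0.746 FPKM in WT replicate 2, next to 0.318. DLK1 measured 12.2 FPKM in WT replicate 3, next to 3.75. For SYT1, SPARC and CYP1B1 the adjusted p stayed under 0.05 when any single library was left out.

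A test of C3 against the mean of the 5 other clones, fitted without WT libraries, showed a difference (adjusted p under 0.05) for 8 of the named genes. The log2 difference was 3.09 for ZNF22, 1.96 for FHIT, 1.26 for ZNF256 and 1.11 for CYP1B1, all higher in C3. It was -1.87 for TCEAL9, -1.61 for RP11-11N9.4, -1.60 for BMP7 and -1.54 for GTSF1, all lower in C3. For BMP7 the direction was opposite to that of C3 against WT (1.23).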

How the results depend on the processing

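The C3 against WT count of 52 called genes became 88 with a pseudocount of 0.1, 79 after scaling to TPM, 20 with a minimum mean of 5 FPKM, 31 in an unmoderated unequal-variance test, 31 at p under 0.001 and 127 at a fold over 1.5; without single libraries it ran from 41 to 64. The 12 genes with an adjusted p under 0.05 became 82 with the replicate block, 52 with WT and EV as joint control, 49 with all 32 libraries in 1 fit, 27 against EV, 7 at a minimum of 5 FPKM and 1 (FBXL7) in the unmoderated test; without single libraries they ran from 6 to 12, with 7 without C3 replicate 1, 7 without C3 replicate 3 and 6 without WT replicate 3. Without both replicate 2 libraries, an alternative chosen after seeing the data, 49 genes were called (22 higher and 27 lower) and 11 passed; without C3 replicate 2 alone 24 were higher and 40 lower, against 31 and 21. NUP58 kept its direction, at -1.69 to -1.51 without single libraries. In the unmoderated test its log2 fold change was -1.61, with an adjusted p of 0.19. SYT1, TCEAL9, GTSF1, SPARC and CYP1B1 kept an adjusted p under 0.05 without any 1 library but not in the unmoderated test, and TCEAL9 lost its call with WT and EV as joint control (-0.63, adjusted p = 0.82). MFAP2 (up to 0.0674, without C3 replicate 1), ZNF256 (0.0716, without C3 replicate 3), ZNF22 (0.0885, without C3 replicate 1), RP11-11N9.4 (0.111, without C3 replicate 4), MYRIP (0.155, without WT replicate 1) and SLC43A3 (0.151, without WT replicate 4) did not. EV against WT gave 23 called genes, 40 with a pseudocount of 0.1, 47 (19 higher and 28 lower, against 13 and 10) scaled to TPM, 7 at a minimum of 5 FPKM and 22 to 30 without single libraries; C3 against EV gave 60, 112, 99, 23 and 57 to 76. C3 against the other clones gave 283 genes, 624 with the block, 169 at a minimum of 5 FPKM, 425 without clone C1, 508 without C4, 145 without C5, 92 without C6 and 103 to 301 without single C3 libraries (179 without replicate 1, 150 without 3, 103 without 4). Against EV the direction turned for BMP7 (-1.02), STXBP2 (-1.27; -0.085 against WT and EV together) and GLYATL2 (-0.0345). Among the genes named, FBXL7 (0.0426), TMEM35A (0.0138) and GLYATL2 (0.0226) also passed with the block. Beyond these and those given in the report, the block brought no named gene to an adjusted p under 0.05. Of the list medians, 862 values stayed within the spread between libraries and 18 did not, NRF2 targets among them. In all these the cause was not tested.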

Other observations

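CYP1B1 is known as a target of the aryl hydrocarbon receptor, so other genes of that pathway were looked up after its value was seen. AHR, the receptor, stood at 1.18 to 2.77 FPKM in C3 and 1.08 to 2.43 in WT (log2 fold change 0.06). AHRR, its repressor, stood at 1.21 to 3.09 FPKM in C3 and 1.82 to 3.80 in WT (log2 fold change -0.30), and TIPARP, another target, at 4.04 to 6.63 and 4.75 to 6.31 (0.03). CYP1A1 stood at 0.619 to 1.31 FPKM in C3 and 1.17 to 2.99 in WT (log2 fold change -0.61, adjusted p = 0.96). None of these was called.

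LMO1, a LIM-only transcription regulator, was called higher in C3 (log2 fold change 1.2, SE 0.37, adjusted p = 0.68). It stood at 1.2, 2.73, 1.23 and 5.65 FPKM in C3 and 0.314, 0.170, 0.342 and 1.11 in WT, and did not exceed 1.22 FPKM in the other clones. RASSF1, a Ras-association tumour suppressor, stood at 26.4, 20.4, 34.2 and 26.0 FPKM in C3 and 13.5, 12.1, 12.6 and 13.7 in WT (log2 fold change 0.97, SE 0.15, adjusted p = 0.077; with the replicate block 0.011), without overlap. Both were picked after their values were seen.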
